A study of Mus musculus with 6 samples.

Results

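The 34 genes described here are transporters and endocytic receptors of the kidney proximal tubule, read in RNA from kidney cells sorted for the endothelial surface protein CD31. They were listed by gene symbol, and each symbol had a row among the 55487 genes of the expression table. The list was drawn up with the difference between the I-PpoI and control libraries already known, so the values below describe that difference and do not test it. Slc7a13, the only member below every control in I-PpoI mouse 3, was kept in the list.

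The proximal tubule is the first stretch of the nephron after the glomerulus, and its cells take back most of the glucose, amino acids, phosphate and bicarbonate that the glomerulus filters. They do so with carriers of the solute carrier (Slc) families on the brush border and on the blood side. Filtered proteins are recovered by endocytosis through megalin (Lrp2) and cubilin (Cubn). These genes are marks of an epithelium and not of the endothelial cells that the sort was aimed at.

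The libraries came from 6 mice, 3 in each of 2 groups. The I-PpoI mice carried VE-cadherin Cre, a recombinase driven by the promoter of an endothelial adhesion gene, with a stopped I-PpoI gene that Cre releases. I-PpoI is an endonuclease that makes DNA double-strand breaks. The genotype label named the locus ROSA26-STOP-I-PpoI in mouse 1, ROSA27-STOP-I-PpoI in mouse 2 and ROSA28-STOP-I-PpoI in mouse 3. Controls were wild-type littermates. Every mouse, control or not, was fed for 4 weeks on chow in which fat gave 60% of the energy (a high-fat diet), beginning at 8 weeks of age. Kidneys were digested whole with collagenase, CD31-positive cells were taken with magnetic beads, and all libraries carried the same batch label. Levels are FPKM (fragments scaled to the gene's length and to the library's total), and values are listed in the order of mouse 1, 2 and 3 within a group.

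The 3 I-PpoI libraries were not alike. Whole fragments, worked back from FPKM and exon length, numbered 14081222 to 16954480 per control library and 1590957, 834149 and 13324303 in the I-PpoI libraries. Minus-strand genes held 68.2% and 70.6% of the mitochondrial fragments of I-PpoI mice 1 and 2, but 0.0821% for I-PpoI mouse 3 and 0.0473 to 0.0664% for controls. Gene models annotated as antisense held 14.7% and 10.02% of fragments of I-PpoI mice 1 and 2, 0.119% for I-PpoI mouse 3 and 0.197 to 0.225% for controls. A gene that faces another on the opposite strand may therefore hold the other's fragments in I-PpoI mice 1 and 2. For 14 of the 34 genes the opposite strand held no gene within 5 kb of any exon, and these are called strand-clear below. Of the other 20, 9 shared exon bases with an opposite-strand gene and 11 had one only nearby. Strand-clear genes of all kinds held 241106 and 79921 fragments of I-PpoI mice 1 and 2 and 2333462 of I-PpoI mouse 3. If those first 2 libraries were counted on the opposite strand, their strand-clear values are what remained on the annotated strand, so they are uncertain too. Mitochondrial genes took 48.2% of fragments of I-PpoI mouse 3 and 8.83 to 18.3% of those of controls.

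Upstream sequence is shown for a member where a letter match bears on a tubule regulator. Of the 34 genes, 27 had an entry among the RefSeq windows of build GRCm38.p6, which run from 250 bases before to 50 bases after a gene's start. The letters CAAAGTCCA, a core of sites for the tubule regulator HNF4, were sought on both strands, as were the strings that follow. They matched exactly in 1 of 27 members, Slc3a1 (3.70%), and in 150 of 27025 genes in the whole table (0.555%). A direct repeat of AGGTCA with an A between, read by nuclear receptors and close in letters to the HNF4 core, matched with at most 2 mismatches in Slc34a3 and Slc39a5 (7.41%, against 1.69% of all genes). TATAAA was found in 18.5% of members and 15.7% of all genes. ACCGGAAGT, a letter string of ETS factors, was in 0 of 27 members and in 1.21% of all genes. Below are the 250 bases before the start of 1 member with a match and of 1 without, with the letters of the HNF4 core in capitals and each written on the strand of its gene. Slc3a1 lies at chr17:85028097-85028346 on the plus strand and carries the HNF4 core. Cubn lies at chr2:13491877-13492126 on the minus strand and had no match to any of these letter strings.
Slc3a1: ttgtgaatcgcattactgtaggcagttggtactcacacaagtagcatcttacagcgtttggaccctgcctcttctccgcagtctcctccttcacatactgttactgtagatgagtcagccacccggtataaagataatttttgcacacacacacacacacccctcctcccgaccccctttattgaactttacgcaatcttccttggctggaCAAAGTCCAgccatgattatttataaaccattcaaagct
Cubn: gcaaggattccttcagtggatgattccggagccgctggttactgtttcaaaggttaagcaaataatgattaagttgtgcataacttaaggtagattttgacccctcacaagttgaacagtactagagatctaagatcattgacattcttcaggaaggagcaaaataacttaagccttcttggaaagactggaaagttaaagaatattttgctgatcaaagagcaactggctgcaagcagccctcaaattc
A match is a description of the letters, and binding was not measured. The regulator Hnf4a was named after its values were seen. It stood at 3.44, 3.69 and 4.25 FPKM among controls and 2.07, 14.8 and 15.8 FPKM among I-PpoI mice.

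Every control library held RNA of these genes. The median member lay at percentile 28.6, 35.7 and 26.9 of the genes tested in control mice 1, 2 and 3. A member had between 12 and 5083 fragments in a control library, with medians of 163, 156 and 134.5. Control mouse 3 was the lowest control for 24 of the 34 genes and the highest for 2. The highest control was a median 1.73 times the lowest, from 1.06 times for Cubn to 6.33 times for Slc7a13. All members together made up 0.0914%, 0.103% and 0.0652% of nuclear fragments in the controls. They made up 0.131%, 0.330% and 0.672% in I-PpoI mice 1, 2 and 3. Slc6a20b, which shares exon bases with an opposite-strand gene, gave 939 of the 1952 member fragments of I-PpoI mouse 1. It gave 395 of the 1701 of I-PpoI mouse 2, so these shares do not stand for the typical member.

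Against the controls, the I-PpoI libraries split by mouse. In I-PpoI mouse 3, 32 of 34 members were above all 3 controls, 1 was below and 1 lay within, where 6.17% of all 14962 genes tested were above and 70.7% below. In I-PpoI mouse 2, 20 were above and 11 below, where 25.6% of all genes were above and 64.7% below. In I-PpoI mouse 1, 8 were above and 25 below, where 28.7% of all genes were above and 57.2% below. The median member stood at 0.349, 1.80 and 3.55 times the control mean in I-PpoI mice 1, 2 and 3, and the median of all genes tested at 0.609, 0.409 and 0.584 times. Since the genes were chosen on this contrast, nothing is read from these counts beyond the values. In sorted bulk RNA, more tubule cells in a preparation and more RNA per tubule cell cannot be told apart.

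**Figure D1:**
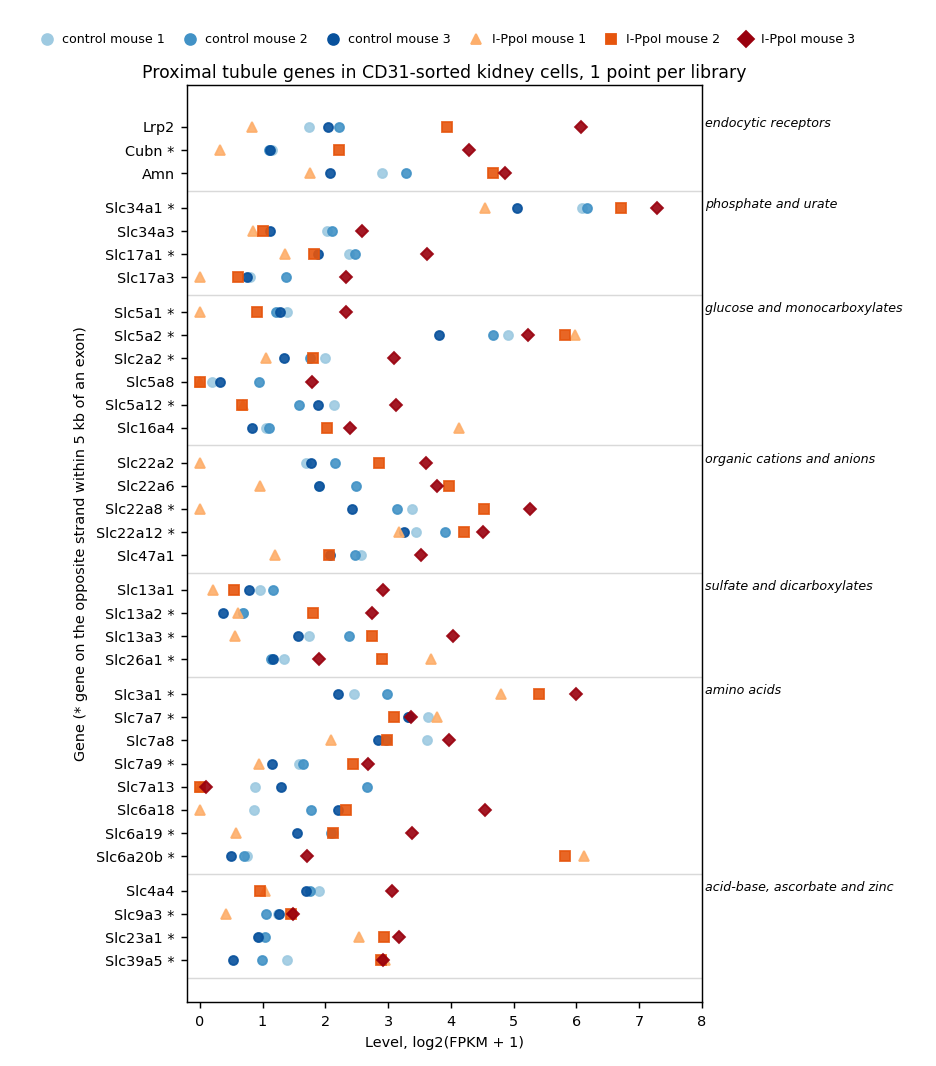
Level of each of the 34 genes in each library, as log2(FPKM + 1), 1 point per library, grouped by role; circles are controls, and the triangle, square and diamond are I-PpoI mice 1, 2 and 3. An asterisk marks the 20 genes that are not strand-clear. Lrp2 and Cubn have the I-PpoI mouse 3 diamond far to the right of the controls, whereas Slc6a20b is far to the right for I-PpoI mice 1 and 2.

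The strand-clear members put the I-PpoI libraries in the same order. They held 3224, 3362 and 2997 fragments in the controls and 193, 380 and 21942 in the I-PpoI mice. As a share of all strand-clear fragments this was 0.0643% in control mouse 1 (95% exact Clopper-Pearson interval 0.0621 to 0.0665%), 0.0829% in control mouse 2 (0.0801 to 0.0857%) and 0.0625% in control mouse 3 (0.0603 to 0.0648%). I-PpoI mouse 1 had 0.0800% (0.0692 to 0.0922%), I-PpoI mouse 2 had 0.475% (0.429 to 0.526%) and I-PpoI mouse 3 had 0.940% (0.928 to 0.953%). I-PpoI mice 2 and 3 were above the span of the controls, and the place of I-PpoI mouse 1 turned on single genes. Slc16a4 gave 103 of its 193 fragments, and without that gene the shares were 0.0614 to 0.0813% for controls and 0.0373%, 0.463% and 0.931% for I-PpoI mice 1, 2 and 3, with mouse 1 below every control. Without Lrp2 they were 0.0441 to 0.0617% for controls and 0.0713%, 0.225% and 0.306% for I-PpoI mice 1, 2 and 3, with mouse 1 above every control. These intervals cover counting error only. Of the 14 strand-clear members, 1 was above all controls and 13 below for I-PpoI mouse 1, where 5.34% of the 3654 strand-clear genes tested were above and 80.6% below. For I-PpoI mouse 2, 6 were above and 7 below (5.69% and 86.4% of strand-clear genes), and for I-PpoI mouse 3, 13 were above and 1 below (5.91% and 79.3%).

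Of all members, the endocytic receptors Lrp2 and Cubn lay furthest above the control mean in I-PpoI mouse 3. Lrp2 (megalin, chr2:69424340-69586065, mm10) is the giant scavenger receptor of the brush border and is strand-clear. It was at 2.33, 3.65 and 3.12 FPKM among controls and 0.784, 14.3 and 66.5 FPKM among I-PpoI mice. I-PpoI mouse 3 was 21.9 times the control mean of 3.03 ± 0.66 FPKM (SD, n = 3), with 14796 fragments, and I-PpoI mouse 1 was below every control with 21. Cubn (cubilin, chr2:13276338-13491813), the partner that binds vitamin-carrying proteins, was at 1.22, 1.15 and 1.17 FPKM among controls and 0.250, 3.68 and 18.5 FPKM among I-PpoI mice. The controls were closest together for this gene, and I-PpoI mouse 3 was 15.7 times their mean. Amn (amnionless), which carries cubilin to the membrane, was at 6.48, 8.79 and 3.20 FPKM among controls and 2.37, 24.6 and 27.9 FPKM among I-PpoI mice. It is strand-clear, and I-PpoI mice 2 and 3 were both above the controls. The ratio of Lrp2 to Cubn FPKM was 1.91, 3.18 and 2.66 in the controls and 3.13, 3.89 and 3.59 in the I-PpoI mice, with I-PpoI mice 2 and 3 above every control and mouse 1 within their range. Cubn is not strand-clear. The ratio of Lrp2 to Slc34a1 was 0.0346, 0.0515 and 0.0968 in the controls and 0.0350, 0.139 and 0.427 in the I-PpoI mice. Lrp2 is the longest of the 34 transcripts, and longer genes lay somewhat higher in I-PpoI mouse 3. Over 3645 strand-clear genes the median log2 ratio to control went from -0.89 in the shortest to -0.67 in the longest of 5 equal classes of exon length. Over the 34 members, length and that ratio had a Spearman correlation of 0.20 across genes, which are not independent replicates. The part of length in the result was not tested.

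The phosphate and urate carriers had the most abundant member. Slc34a1 (NaPi-IIa), which takes up most filtered phosphate, was at 67.3, 70.8 and 32.2 FPKM among controls and 22.4, 103 and 156 FPKM among I-PpoI mice. Its place was highest in I-PpoI mouse 3, at 2.74 times the control mean of 56.8 ± 21.3 FPKM (SD, n = 3). Slc34a3 (NaPi-IIc) was at 3.10, 3.31 and 1.18 FPKM among controls and 0.793, 1.01 and 4.996 FPKM among I-PpoI mice. Slc17a1 was at 4.20, 4.55 and 2.69 FPKM among controls and 1.58, 2.52 and 11.3 FPKM among I-PpoI mice. Slc17a3 was at 0.740, 1.58 and 0.688 FPKM among controls and 0, 0.528 and 4.02 FPKM among I-PpoI mice. Slc17a1 and Slc17a3 are organic anion and urate carriers whose genes lie 7034 bases apart on chromosome 13, on the same strand. As deposited, all 4 genes were below the controls in I-PpoI mouse 1 and above them in I-PpoI mouse 3. In I-PpoI mouse 1, Slc34a3, Slc17a1 and Slc17a3 rest on 3, 6 and 0 fragments, and Slc17a1 is not strand-clear. After scaling that sets the median gene of each library level, 2 of the 4 were below in I-PpoI mouse 1. Slc34a1 and Slc34a3 then lay within the controls there, and all 4 were still above in I-PpoI mouse 3.

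Among the glucose and monocarboxylate carriers, a pair stood apart from the rest. Slc5a2 (SGLT2, chr7:128265657-128272430), the bulk glucose transporter of the early tubule, was at 29.2, 24.6 and 13.0 FPKM among controls and 62.0, 55.6 and 36.4 FPKM among I-PpoI mice. All 3 I-PpoI values were above all controls, but the first 2 coincide with an opposite-strand neighbour described below. Slc16a4, a monocarboxylate transporter family member and strand-clear, was at 1.08, 1.15 and 0.776 FPKM among controls and 16.6, 3.08 and 4.28 FPKM among I-PpoI mice. Its fragments were 103, 10 and 221 in the I-PpoI mice and 51 to 68 in the controls, so the value of I-PpoI mouse 2 rests on few. Slc5a1 (SGLT1), the glucose transporter of the late tubule, was at 1.61, 1.33 and 1.44 FPKM among controls and 0, 0.872 and 4.00 FPKM among I-PpoI mice. Slc2a2 (GLUT2) lets glucose out on the blood side. It was at 2.98, 2.38 and 1.53 FPKM among controls and 1.08, 2.49 and 7.56 FPKM among I-PpoI mice. Slc5a12, a lactate carrier, was at 3.41, 1.99 and 2.67 FPKM among controls and 0.614, 0.588 and 7.71 FPKM among I-PpoI mice. Slc5a8, another sodium-coupled monocarboxylate carrier, fell under the mean of 1 FPKM asked for in the fit. Its levels were 0.151, 0.920 and 0.255 FPKM among controls and 0, 0 and 2.45 FPKM among I-PpoI mice. All 6 of these genes were above the controls in I-PpoI mouse 3, by 1.64 times for Slc5a2 up to 5.54 times for Slc5a8.

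Most of the organic cation and anion carriers listed here move drugs and metabolites from blood toward urine. Slc22a6 (OAT1) was at 2.73, 4.60 and 2.73 FPKM among controls and 0.939, 14.7 and 12.7 FPKM among I-PpoI mice. Slc22a8 (OAT3) was at 9.43, 7.83 and 4.38 FPKM among controls and 0, 22.0 and 37.4 FPKM among I-PpoI mice. This pair of neighbours, 6204 bases apart on chromosome 19 and on the same strand, was above all controls in I-PpoI mice 2 and 3 and below them in I-PpoI mouse 1. A count of 0 for Slc22a8 in I-PpoI mouse 1 allows up to 0.478 FPKM at 3 fragments, which is under every control. That limit covers counting only. Slc22a8 is not strand-clear, so its level in this library stays uncertain. Slc22a2 (OCT2), the cation carrier of the blood side, was at 2.22, 3.43 and 2.42 FPKM among controls and 0, 6.25 and 11.1 FPKM among I-PpoI mice. Slc22a12 (URAT1), the urate exchanger, was at 9.85, 14.1 and 8.55 FPKM among controls and 7.99, 17.4 and 21.8 FPKM among I-PpoI mice. Slc47a1 (MATE1), which puts cations into urine, was at 4.90, 4.58 and 3.21 FPKM among controls and 1.29, 3.18 and 10.5 FPKM among I-PpoI mice. All 5 were above the controls in I-PpoI mouse 3, from 2.01 times the control mean for Slc22a12 to 5.19 times for Slc22a8.

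Sulfate and dicarboxylate carriers stood between 0.294 and 4.22 FPKM in control libraries. Slc13a1, the brush border sulfate carrier, was at 0.953, 1.25 and 0.725 FPKM among controls and 0.161, 0.463 and 6.56 FPKM among I-PpoI mice. Slc13a2, the citrate carrier, was at 0.616, 0.619 and 0.294 FPKM among controls and 0.517, 2.47 and 5.69 FPKM among I-PpoI mice. Slc13a3, its counterpart on the blood side, was at 2.34, 4.22 and 1.97 FPKM among controls and 0.478, 5.72 and 15.4 FPKM among I-PpoI mice. These 3 genes were 6.72, 11.2 and 5.40 times the control mean in I-PpoI mouse 3. Slc26a1, a sulfate and oxalate exchanger of the blood side, had another order, with 1.53, 1.19 and 1.25 FPKM among controls and 11.9, 6.48 and 2.72 FPKM among I-PpoI mice. Its highest value was that of I-PpoI mouse 1, and Slc26a1 also shares exon bases with an opposite-strand gene.

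The amino acid carriers held both large differences and the only member below every control in I-PpoI mouse 3. Slc3a1 (rBAT, chr17:85028376-85064236), whose upstream letters are printed above, is the heavy chain of the cystine transporter, and Slc7a9 is its light chain. Slc3a1 was at 4.50, 6.88 and 3.61 FPKM among controls and 26.9, 41.5 and 62.5 FPKM among I-PpoI mice. Slc7a9 was at 1.99, 2.12 and 1.21 FPKM among controls and 0.932, 4.46 and 5.38 FPKM among I-PpoI mice. The heavy chain was 2.26, 3.24 and 2.98 times the light chain in the controls and 28.9, 9.31 and 11.6 times in the I-PpoI mice. The ratio was above that of all controls in each I-PpoI library. However, Slc3a1 shares exon bases with an opposite-strand gene, and Slc7a9 is not strand-clear. Slc7a9 had 4 and 10 fragments in I-PpoI mice 1 and 2, so the ratios of those mice rest on few. Slc7a7 and Slc7a8 are light chains of the blood side. Slc7a7 was at 11.4, 9.09 and 8.93 FPKM among controls and 12.8, 7.56 and 9.26 FPKM among I-PpoI mice. It was the member within the control range in I-PpoI mouse 3, and it shares exon bases with an opposite-strand gene. Slc7a8 was at 11.2, 6.86 and 6.13 FPKM among controls and 3.24, 6.92 and 14.7 FPKM among I-PpoI mice. Slc6a19 and Slc6a18 are brush border carriers of neutral amino acids whose genes lie 1722 bases apart on chromosome 13. Slc6a19 was at 3.36, 3.26 and 1.93 FPKM among controls and 0.498, 3.34 and 9.46 FPKM among I-PpoI mice. Slc6a18 was at 0.827, 2.40 and 3.59 FPKM among controls and 0, 4.05 and 22.2 FPKM among I-PpoI mice. Both were highest in I-PpoI mouse 3, and the ratio of Slc6a19 to Slc6a18 ran from 4.07 to 0.538 within the controls alone. Slc6a20b, an imino acid carrier, was at 0.689, 0.633 and 0.415 FPKM among controls and 68.6, 55.2 and 2.28 FPKM among I-PpoI mice. It has a near copy in Slc6a20a, so reads that fit both are uncertain.

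Slc7a13 (chr4:19818725-19842218, strand-clear), the light chain AGT1 of the late tubule, was the 1 member below every control in I-PpoI mouse 3. Its levels were 0.838, 5.31 and 1.46 FPKM in the controls, from 29, 160 and 53 fragments, and 0, 0 and 0.0701 FPKM among I-PpoI mice. The 2 fragments of I-PpoI mouse 3 put it at 0.0276 times the control mean, with an exact Poisson counting interval of 0.00335 to 0.0998 times. A count of 0 allows up to 0.874 FPKM in I-PpoI mouse 1 and 1.67 FPKM in I-PpoI mouse 2, which covers control mouse 1 in the first and control mice 1 and 3 in the second. At this depth a difference from those controls was not detectable in I-PpoI mice 1 and 2. The other late-tubule members were higher than the controls in I-PpoI mouse 3, with Slc6a18 at 9.78, Slc5a8 at 5.54 and Slc5a1 at 2.74 times the control mean. The 6 early-tubule members, Slc5a2, Slc5a12, Slc2a2, Slc34a1, Slc6a19 and Slc4a4, were at 1.64 to 3.31 times.

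Slc7a13 is known as a gene of male mouse kidney, and the sex-linked transcripts differed along with it. Ddx3y, on the Y chromosome, was at 17.7, 13.1 and 19.0 FPKM among controls and 2.40, 0 and 0 FPKM among I-PpoI mice. Xist, transcribed from the inactive X, had 4, 0 and 0 fragments in the controls and 0, 70 and 4739 in the I-PpoI mice. By these transcripts the controls and I-PpoI mouse 1 were male and I-PpoI mice 2 and 3 female. Values of 0 in I-PpoI mice 1 and 2, here and below, are limited by depth and strand and do not show absence. The next genes were named after their values were seen. Slco1a1, known as male-biased in mouse kidney, was at 0.23, 1.00 and 0.39 FPKM among controls and 0.35, 0 and 0 FPKM among I-PpoI mice. Slc7a12, known as female-biased, was at 0, 0.08 and 0.27 FPKM among controls and 0, 0 and 14.1 FPKM among I-PpoI mice. Cyp4a14, also female-biased, was at 0, 0.14 and 0.20 FPKM among controls and 0, 4.13 and 20.5 FPKM among I-PpoI mice. Kap, an androgen-regulated kidney gene, did not follow this split, at 134, 755 and 165 FPKM among controls and 11.5, 25.3 and 710 FPKM among I-PpoI mice. Sex and genotype cannot be told apart for Slc7a13 in I-PpoI mice 2 and 3, and the same holds for every member there.

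**Figure D2:**
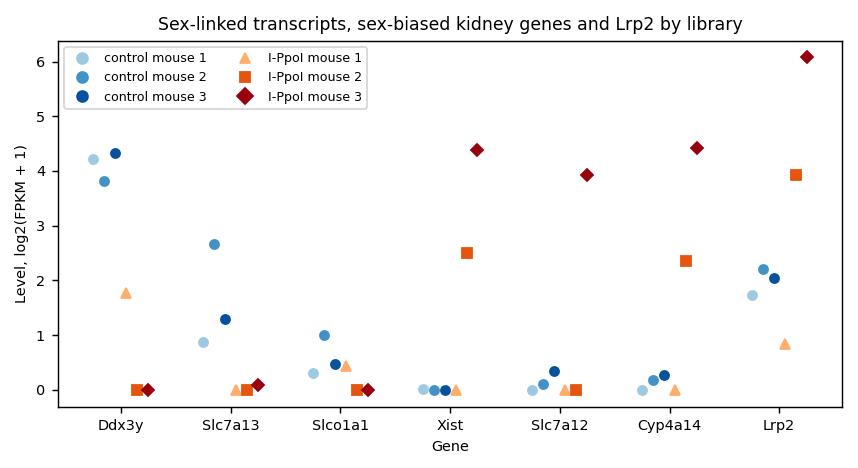
Level of sex-linked transcripts (Ddx3y, Xist), sex-biased kidney genes (Slc7a13, Slco1a1, Slc7a12, Cyp4a14) and Lrp2, as log2(FPKM + 1), 1 point per library in the order control mouse 1 to 3 and I-PpoI mouse 1 to 3. Ddx3y and Slc7a13 are at 0 or near it in I-PpoI mouse 3, where Xist, Slc7a12, Cyp4a14 and Lrp2 are at their highest.

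The last group joins acid-base, ascorbate and zinc carriers. Slc4a4 (NBCe1), the bicarbonate exit of the blood side and strand-clear, was at 2.71, 2.36 and 2.22 FPKM among controls and 1.05, 0.948 and 7.37 FPKM among I-PpoI mice. Slc9a3 (NHE3), the brush border sodium and proton exchanger, was at 1.36, 1.07 and 1.39 FPKM among controls and 0.340, 1.73 and 1.81 FPKM among I-PpoI mice. With 1.42 times the control mean, Slc9a3 was among the members that differed least in I-PpoI mouse 3. Slc23a1, the ascorbate carrier, was at 0.917, 1.05 and 0.911 FPKM among controls and 4.81, 6.63 and 8.04 FPKM among I-PpoI mice. Slc39a5, a zinc carrier, was at 1.61, 0.990 and 0.451 FPKM among controls and 6.73, 6.44 and 6.58 FPKM among I-PpoI mice. For these last 2 all I-PpoI mice were above all controls, but neither gene is strand-clear. The I-PpoI values of Slc39a5 were closer together than its controls, but rest on 24, 12 and 195 fragments. Its opposite-strand neighbour Ankrd52 was at 7.16, 2.25 and 5.98 FPKM among controls and 16.7, 11.1 and 3.81 FPKM among I-PpoI mice. Paip2, near Slc23a1, was at 31.4, 42.4 and 29.9 FPKM among controls and 4.75, 8.76 and 17.9 FPKM among I-PpoI mice. The part of these neighbours was not tested.

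Ordered by I-PpoI mouse 3, 6 members were more than 8 times the control mean (Lrp2, Cubn, Slc3a1, Slc13a2, Slc6a18 and Slc23a1), 22 lay between 2 and 8 times, 4 between 1 and 2 times and 2 under 1. The median in this library was 4.07 times over the strand-clear members and 3.16 times over the others. Of the strand-clear genes other than Slc7a13, the lowest was Slc7a8 at 1.82 times.

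**Figure D3:**
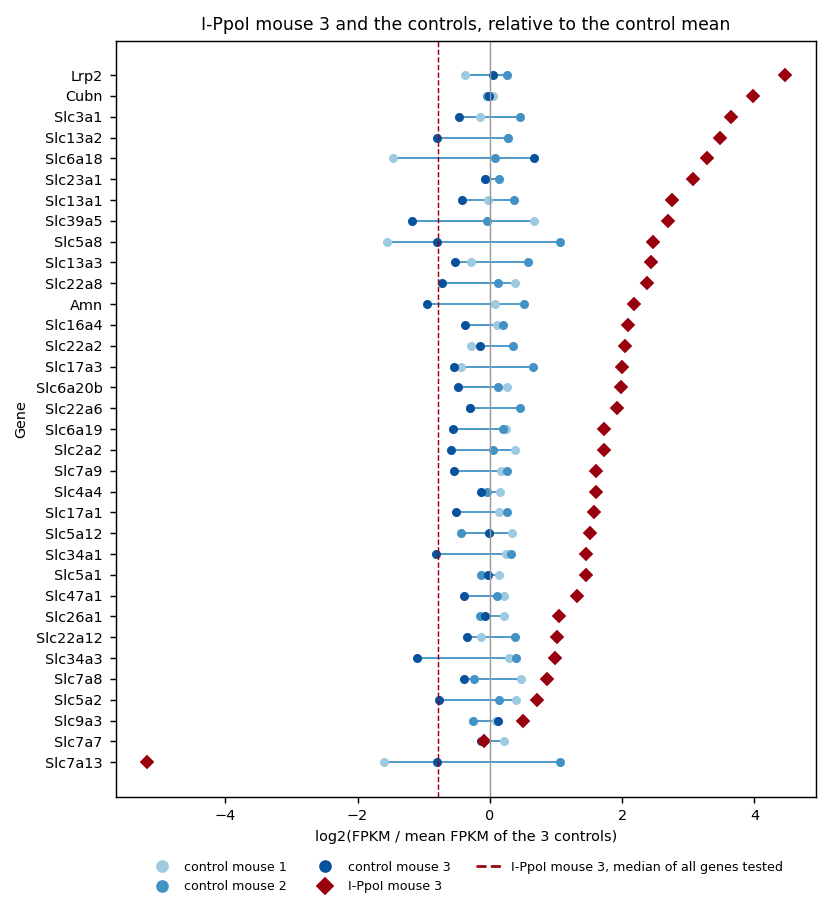
Each gene's FPKM in I-PpoI mouse 3 (diamonds) and the 3 controls (circles, joined by a line) relative to the control mean, on a log2 axis. The diamonds run from Slc7a13 at the far left to Lrp2 at the far right, and the dashed line marks the median of all 14962 genes tested, at 0.584 times the control mean.

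Only 7 members had all 3 I-PpoI libraries above all 3 controls, where 2.24% of all genes tested did: Slc5a2, Slc16a4, Slc26a1, Slc3a1, Slc6a20b, Slc23a1 and Slc39a5. Of these, Slc16a4 alone was strand-clear. Slc7a13 alone had all 3 below, where 45.1% of all genes did. After median-of-ratios scaling, which sets the median gene of each library level, 9 members were above in all 3 (7.65% of all genes) and 1 below (9.76%). Library by library the scaled values put 9 members above all controls and 19 below for I-PpoI mouse 1 (all genes 42.3% and 39.3%). They put 27 above and 4 below for I-PpoI mouse 2 (42.7% and 41.3%), and 33 above and 1 below for I-PpoI mouse 3 (22.2% and 26.1%). For the 9 members that share exon bases with an opposite-strand gene, the partner's level is given beside these values. The partners' FPKM was above all controls for 8 of the 9 partners in I-PpoI mouse 1 and for 8 in I-PpoI mouse 2. Of all genes tested, 28.7% and 25.6% were above in these libraries. In I-PpoI mouse 3 the partners' FPKM was above for 3 and below for 6. There 6.17% of all genes were above and 70.7% below, so the count below is near the share of all genes. For Slc5a2, which shares 597 exon bases with BC017158, that partner was at 7.04, 5.72 and 5.72 FPKM among controls and 49.4, 91.6 and 3.78 FPKM among I-PpoI mice. Slc3a1 shares 601 bases, or 26.5% of its exons, with Prepl, at 5.39, 3.22 and 4.46 FPKM among controls and 10.3, 136 and 3.20 FPKM among I-PpoI mice. Prepl was below its controls in I-PpoI mouse 3, as were 70.7% of all genes, and Slc3a1 was at its highest there. Slc26a1 shares 141 bases with Idua, at 7.23, 4.45 and 5.63 FPKM among controls and 14.5, 15.0 and 3.16 FPKM among I-PpoI mice. Slc34a1 shares 545 bases with Pfn3, at 2.04, 0.913 and 0.325 FPKM among controls and 50.3, 188 and 2.62 FPKM among I-PpoI mice. Slc22a12 shares 682 bases with Nrxn2, at 0.166, 0.293 and 0.226 FPKM among controls and 3.79, 17.5 and 0.136 FPKM among I-PpoI mice. Slc6a20b shares 1800 bases with Sacm1l, which was at 23.5, 18.6 and 23.4 FPKM among controls and 6.84, 7.02 and 13.0 FPKM among I-PpoI mice. Here the partner was abundant in the controls and lower in all 3 I-PpoI libraries, as were 45.1% of all genes. Slc6a20b was higher in all 3. For Cubn, which shares 368 bases with Gm13270, that partner had 1 to 4 fragments in the controls and 17, 161 and 6 in the I-PpoI mice. Slc13a2 shares 632 bases with Slc13a2os, at 0, 0.0196 and 0.0976 FPKM among controls and 1.38, 12.2 and 0.186 FPKM among I-PpoI mice. Slc7a7 shares 232 bases with Oxa1l, at 8.16, 8.24 and 8.97 FPKM among controls and 19.3, 22.2 and 5.74 FPKM among I-PpoI mice. The part of the opposite strand in these values was not tested. For I-PpoI mouse 3 the strand measures above were near those of the controls.

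**Figure D4:**
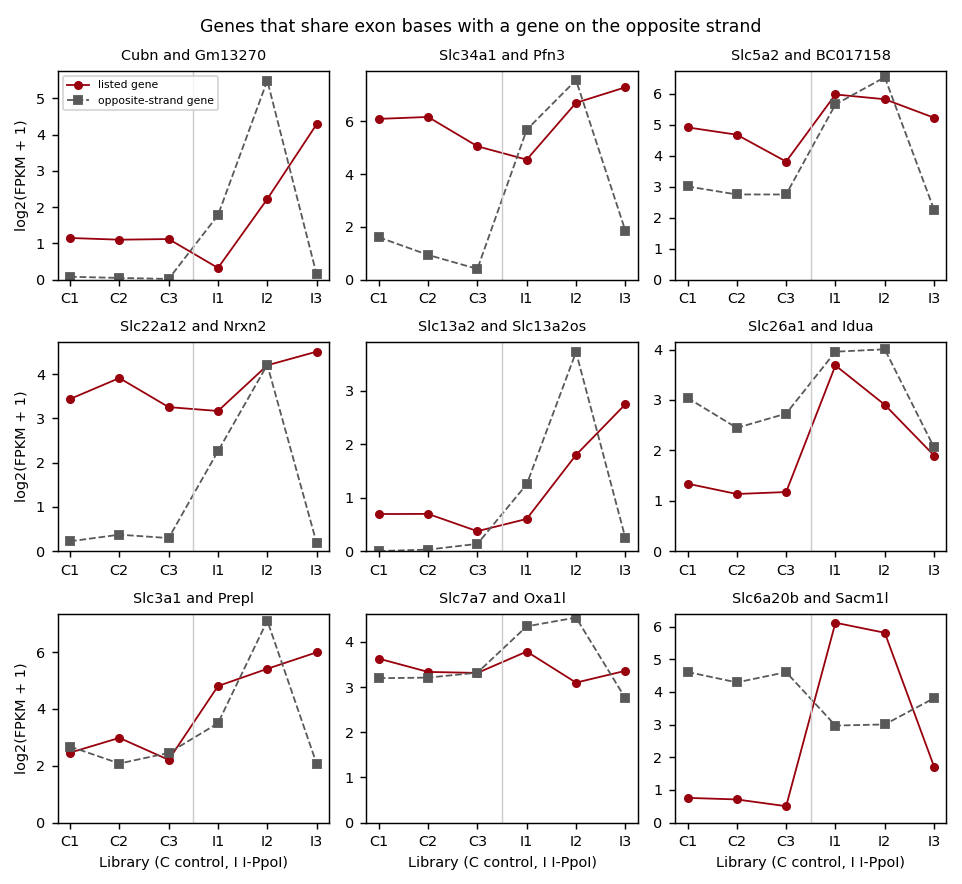
The 9 members that share exon bases with an opposite-strand gene: level of the member (circles) and of its partner (squares) in each library as log2(FPKM + 1), where C1 to C3 are control mice and I1 to I3 are I-PpoI mice. In I1 and I2 the partner is above its controls in every panel but that of Slc6a20b and Sacm1l, and in I3 most partners are at or below their controls.

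Limma, a linear model fitted to log2(FPKM + 1) over the 14962 genes averaging 1 FPKM or more, called 0 of the 33 members that passed that filter (0% of all genes called) at an adjusted p of 0.05. The smallest adjusted p was 0.124, for members and for all genes alike, and 5503 genes had an unadjusted p under 0.05. Limma-voom on recovered fragments also called 0 genes, with 3773 at an unadjusted p under 0.05. Of the 33, 29 had a control mean of at least 1 FPKM and 4 passed through the I-PpoI libraries. The fitted log2 fold change was above 0 for 24 of 33 members and 28.4% of all genes, with medians of 0.41 and -0.65. With median-of-ratios scaling it was above 0 for 32 of 33 members and 50.8% of all genes, with medians of 1.16 and 0.02, and with limma-voom for 32 of 33 and 26.2%, with medians of 1.19 and -0.71. At a pseudocount of 0.1 it was above 0 for 18 of 33 members and 27.7% of all genes. It was 2.85 (SE 0.41) for Slc3a1 and 3.89 (SE 1.15) for Slc6a20b. For Lrp2 it was 1.62 (SE 1.23), since the 3 I-PpoI libraries of Lrp2 lay on both sides of the controls. Over the 3654 strand-clear genes alone, limma called 2 of 13 members, Slc16a4 higher and Slc7a13 lower (39.4% of genes called). Without I-PpoI mice 1 and 2, it called 3 members higher, Cubn, Lrp2 and Slc3a1 (0.123% of genes called), in a fit that assumes the lone I-PpoI mouse varies like the controls. With median-of-ratios scaling as well, 7 members were called higher (0.445% of genes called). Without I-PpoI mouse 3, the calls were 7 members higher and 3 lower (56.4% of genes called). These calls repeat the contrast that chose the genes and add no evidence.

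Other genes of the same tubule segment were read from lists that were also drawn up with earlier results known, and limma called 0 genes in each, where 0% of all genes were called. In I-PpoI mouse 3, 6.17% of all genes tested were above all controls and 70.7% below, with a median of 0.584 times the control mean. There, 23 of 37 other proximal tubule transporters were above all controls and 8 below, with a median of 2.50 times the control mean. Slc27a2, a fatty acid carrier, was at 10.7, 15.7 and 8.57 FPKM among controls and 2.82, 26.7 and 71.2 FPKM among I-PpoI mice. The water channel Aqp1, which renal endothelium also expresses, was at 407, 447 and 604 FPKM among controls and 169, 151 and 288 FPKM among I-PpoI mice. Of 16 endocytic and brush border partners, 10 were above in I-PpoI mouse 3, with a median of 2.02 times, and of 20 proximal tubule enzymes, 15 were above, with a median of 2.80 times. In I-PpoI mouse 1 the medians of these 3 lists were 0.296, 0.378 and 0.272 times the control mean, near the 0.349 times of the members.

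Markers of other cells are given beside the 70.7% of all genes that were below all controls in I-PpoI mouse 3 as deposited, and the 26.1% that were below after scaling. As deposited, 14 of 14 endothelial markers were below all controls there, with a median of 0.488 times the control mean where that of all genes was 0.584 times. After scaling 9 of 14 were below, with a median of 0.793 times. Pecam1, the gene of the sorted CD31 protein, was at 256, 197 and 237 FPKM among controls and 113, 41.6 and 104 FPKM among I-PpoI mice. The 14 endothelial genes summed to 3085 to 3477 FPKM in the controls and to 2341, 946 and 1515 FPKM among I-PpoI mice, and none was at 0. Of 18 markers of the thick limb, distal tubule and collecting duct, 14 were below all controls in I-PpoI mouse 3 and 0 above, with a median of 0.487 times. This count is near the share of all genes, and after scaling 6 were below and 6 above. Their sum was 269 to 324 FPKM among controls and 152, 147 and 189 FPKM among I-PpoI mice, and the listed genes at 0 numbered 2, 3 and 0. All 7 podocyte markers were below as deposited, with a median of 0.358 times, and 2 of 7 after scaling, with a median of 0.591 times. The leukocyte list had a median of 1.49 times in I-PpoI mouse 3 and sums of 32.4 to 206 FPKM among controls and 86.1, 202 and 195 FPKM among I-PpoI mice. Mural and fibroblast genes had a median of 0.582 times. Median levels of the proximal tubule lists were thus above the control mean in I-PpoI mouse 3. The median of the thick limb, distal tubule and collecting duct list was below it, as was that of all genes. The part of cell makeup in these values was not tested.

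**Figure D5:**
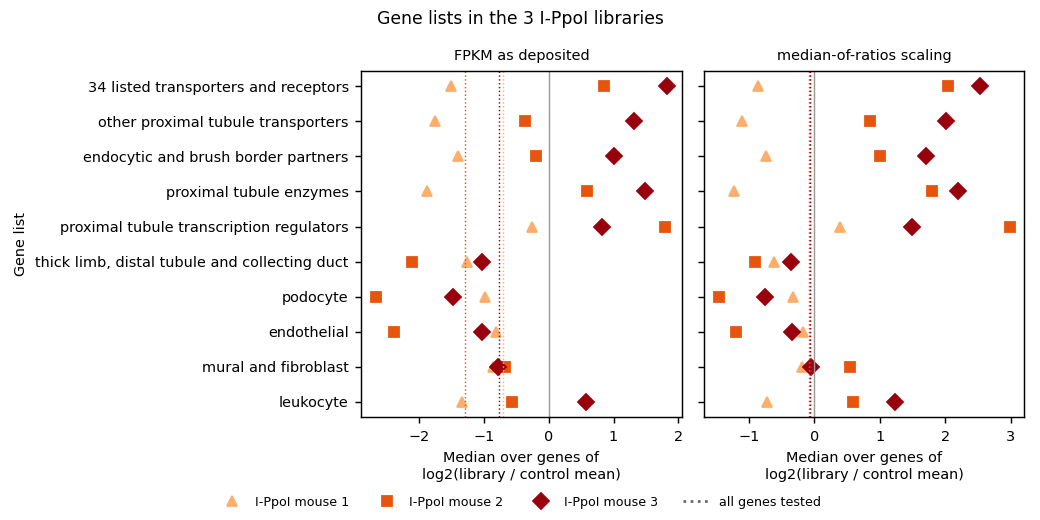
Median over genes of log2(library / control mean) for the 34 genes and 9 other lists in I-PpoI mice 1, 2 and 3, as deposited on the left and after median-of-ratios scaling on the right, with dotted lines at the medians of all genes tested. The 4 proximal tubule gene lists at the top and the regulators are right of 0 in I-PpoI mouse 3 on both sides, and the distal, podocyte and endothelial lists are left of 0.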

How the data were processed

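RNA of CD31-sorted kidney cells from 6 mice was read from a table of FPKM per gene, which the authors deposited. FPKM divides each gene's fragments by its length and the library's total. DESeq2 1.28.13 and the builds mm10 and GRCm38 are named in the submitters' processing notes. The aligner, the counter and the strandedness were not given in the sources used here. Coordinates are those of the deposited table. Fragments were recovered as FPKM times GENCODE M21 exon bases, and 98.5 to 98.6% of those below 1000 came within 0.05 of a whole number. Of 55487 gene IDs, 55227 were in GENCODE M21.

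The labels describe 3 control and 3 I-PpoI mice as separate animals. Limma 3.58.1 (R 4.3.3) was fitted to log2(FPKM + 1), with a variance trend, no block, Benjamini-Hochberg adjustment and a threshold of 0.05. This scale understates fold changes of low genes. Median-of-ratios scaling moved the median of all genes from -0.65 to 0.02 (log2). The members and all lists were chosen with earlier results of these data known. All 34 members were named, other genes by highest mean FPKM in their list or as stated. Some other genes and a motif are not reported here. The strand-clear set was defined from measures of these data. The limma fit was first checked on simulated counts of known change. Alternatives covered pseudocounts of 0.1 and 0.5, filters, scaling, voom, robust variance, the replicate block, protein-coding and strand-clear genes and each library left out. Shares have 95% exact intervals, and 3 fragments were taken as the limit behind a 0. Tables were made with pandas 2.3.3 and scipy 1.17.1 (python 3.11.15), and plots with matplotlib 3.10.9.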

Additional observations from a re-analysis of the deposited data

How the results depend on the processing

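The count of genes called by limma was 0 and became 1440 (13 higher and 1427 lower) over strand-clear genes, 16 without I-PpoI mice 1 and 2, and 58 with median-of-ratios scaling as well, an alternative chosen after seeing the data. Member calls went from 0 to 2 over strand-clear genes (Slc16a4 higher, Slc7a13 lower, where 39.4% of genes were called), 3 without I-PpoI mice 1 and 2, and 7 with scaling as well (Cubn, Lrp2, Slc13a1, Slc13a2, Slc23a1, Slc3a1 and Slc4a4, where 0.445% were called). Leaving out each library in turn gave 0 to 8515 genes and 0 to 10 members, and every count above 0 came from leaving out I-PpoI mouse 3. The median log2 fold change of the members, 0.41, was 1.93 with scaling and without I-PpoI mice 1 and 2, and -0.19 to 1.11 with 1 library left out. It kept its sign except without I-PpoI mouse 3. The 7 members with all I-PpoI libraries above all controls became 3 at a mean of at least 5 FPKM, 1 over strand-clear genes, 31 without I-PpoI mice 1 and 2, 32 with scaling as well, and 7 to 20 with 1 library left out. The cause of these changes was not tested. With the replicate block limma called 0 genes and 0 members, with 4829 genes at an unadjusted p under 0.05 and a median of 0.41. Deviations from the group mean correlated at 0.09, 0.06 and -0.02 between same-numbered mice over 14962 genes. The I-PpoI libraries differed in depth and strand, so these values cannot decide whether same-numbered mice were paired. Of the members' fold changes under alternatives, 475 stayed within 1 SD, taken as the gene's own spread within groups, and 75 moved further. That SD is wide where the I-PpoI libraries differ, so staying within it does not mean a stable value. Without I-PpoI mouse 3, Lrp2 went from 1.62 to 0.39 and Slc34a1 from 0.41 to -0.15, and both counted as within it. Depth limits I-PpoI mice 1 and 2, where 20 and 12 of the 34 members had under 10 fragments and 7 and 2 had 0.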
